A study of Homo sapiens with 6 samples.

Results

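The 10 genes YAP1, WWTR1, TEAD1, TEAD2, TEAD3, TEAD4, LATS1, LATS2, AMOTL2 and ANKRD1 of the Hippo pathway were described in OVCAR8 cells, a line from a human ovarian carcinoma, with and without relaxin-2 (RLN2), a peptide hormone. They were taken by symbol from the merged count table, which has 28381 lines, and all 10 passed the filter on low counts that left 16740 genes for testing. All cells were plated in medium with serum and then kept without serum for 16 hours. The untreated group had 3 libraries, numbered 2 to 4, and the relaxin-2 group had 3 libraries, numbered 1 to 3, from cells given the recombinant human hormone at 50 ng/mL for 8 hours. The labels call these triplicates without saying whether each came from its own culture, so the p-values below cover only the spread among these libraries, and that spread may be technical. All libraries came from 1 cell line.

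The Hippo pathway is a kinase cascade that restrains growth in response to cell contact, tension and serum factors. The kinases LATS1 and LATS2 phosphorylate the coactivators YAP (YAP1) and TAZ (WWTR1), which then stay in the cytoplasm. Without that phosphorylation YAP and TAZ enter the nucleus and act through the DNA-binding TEAD factors on targets such as ANKRD1, an ankyrin repeat protein known from heart muscle, and AMOTL2, an angiomotin that binds YAP in turn. YAP activity is set mostly at the protein level, by phosphorylation and location, which RNA counts do not show. In ovarian carcinoma YAP is studied as a growth-promoting factor.

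TEAD factors recognise the short motif GGAATG, read as CATTCC on the other strand. It was searched on both strands in RefSeq windows of 300 bases around gene starts (build GRCh38.p14). The 2 spellings cannot overlap each other. The motif occurred in 14.0% of all 35116 such windows. Of 8 members with a window, 4 held it in at least 1 window: ANKRD1 at positions -220 and -128 from the start (counted as 0), AMOTL2 at -69, YAP1 at -162 and LATS2 at 9. A match is a description of the letters only, since binding was not measured here. For the 2 members known mainly as YAP/TEAD targets, the 250 bases before the RefSeq start of the window with the motif are shown, with the motif in capitals. TEAD activity is often read through targets such as these. Their fitted differences lay on opposite sides of 0, at 0.29 (log2) for AMOTL2 and -0.06 for ANKRD1, neither past the threshold. Both signs turned with offsets for each library's trend on GC content and length, to -0.31 and 0.08. TEAD activity was therefore not read from these signs. The RefSeq starts used are not the outer ends of the gene spans given below. The AMOTL2 stretch lies inside its gene span, and the ANKRD1 stretch lies partly inside its own. Another AMOTL2 window, at chr3:134375368-134375667, held no motif. Among 13 further target genes with a window, 6 held the motif in at least 1 window. Members such as AMOTL2 and targets such as AXL have more than 1 window. These counts by gene are therefore not on the scale of the 14.0% of windows. ANKRD1 lies on the minus strand at chr10:90921088-90921337 and AMOTL2 on the minus strand at chr3:134374448-134374697, and both are written 5′ to 3′ along the gene.
ANKRD1: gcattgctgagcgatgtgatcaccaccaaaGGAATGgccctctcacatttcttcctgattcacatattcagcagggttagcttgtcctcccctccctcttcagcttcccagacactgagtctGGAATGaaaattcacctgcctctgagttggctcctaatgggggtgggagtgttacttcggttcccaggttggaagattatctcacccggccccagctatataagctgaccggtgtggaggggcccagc
AMOTL2: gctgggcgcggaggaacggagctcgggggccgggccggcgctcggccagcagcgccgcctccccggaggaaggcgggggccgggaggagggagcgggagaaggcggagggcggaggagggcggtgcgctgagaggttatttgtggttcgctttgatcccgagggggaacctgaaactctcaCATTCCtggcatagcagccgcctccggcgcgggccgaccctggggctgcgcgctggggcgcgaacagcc

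Libraries held 11939148 to 22426768 gene reads. Untreated replicate 2 stood apart from the others in a way that followed the GC content of transcripts: relative to each gene's 6-library mean, its median deviation was 0.26 (log2) for tested genes of up to 38% GC and -0.92 for those above 60%. Relaxin-2 replicates 2 and 3 ran the other way, with -0.14 and -0.13 up to 38% GC and 0.47 and 0.34 above 60%. In untreated replicates 3 and 4 and relaxin-2 replicate 1 the medians of these same ranges lay between -0.03 and 0.10. Relaxin-2 replicate 2 had the fewest gene reads and 27.0% multimapping reads, against 5.31% to 6.19% in the others. Of 10 epithelial and ovarian carcinoma markers 7 were tested, led by KRT18 and KRT8, while KRT19, MUC16 and CDH6 had 4, 4 and 1 reads in all. Among those tested, CDH1 had 102 reads in all and WT1 358. Marker sums were 10.8 to 18.9 CPM (read counts scaled to library size) for fibroblasts, 1.71 to 2.87 for endothelium and 0.0439 to 0.261 for immune cells, with DCN, CD3E and MS4A1 at 0. Mesothelial markers summed to 11.4 to 32.6 CPM in untreated and 33.1 to 47.6 CPM in relaxin-2 libraries, and their part in the results was not tested. MSLN made up most of that sum, with 8.55 to 28.9 CPM untreated and 28.8 to 43.5 CPM with the hormone. PDGFRB made up most of the fibroblast sum. The epithelial marker sum was 1490 to 2538 CPM in untreated and 2337 to 2832 CPM in relaxin-2 libraries.

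Levels were compared between genes as CPM per kilobase of annotated exon, on which the median tested gene stood at 3.62. ANKRD1 (chromosome 10, 90912096 to 90921276, GRCh38) was the most abundant member, with 170.3 ± 11.4 (mean ± SD over 6 libraries), a level that placed it 147th from the top of 16673 ranked genes. YAP1 followed with 58.4 ± 3.65 and AMOTL2 with 53.0 ± 8.16, and their ranges overlapped. TEAD1 had 35.6 ± 1.48 and TEAD4 23.3 ± 2.98, without overlap between them. LATS1 (7.66 ± 0.52) and LATS2 (6.05 ± 0.43) came next, also without overlap. TEAD3 (5.06 ± 1.27), WWTR1 (3.71 ± 0.17) and TEAD2 (3.50 ± 0.48) lay near the median gene, and each overlapped its neighbour in this order. So the coactivator transcripts were mostly YAP1, 15.7 times the level of WWTR1 on this scale. The ratio depends on the length used, because WWTR1 has 8413 annotated exon bases but transcripts that average 1327 bases: by mean transcript length it was 5.46. On that second scale AMOTL2 (170.6) was level with ANKRD1 (170.3), and WWTR1 (23.5) stood above LATS1 (20.0).

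**Figure D1:**
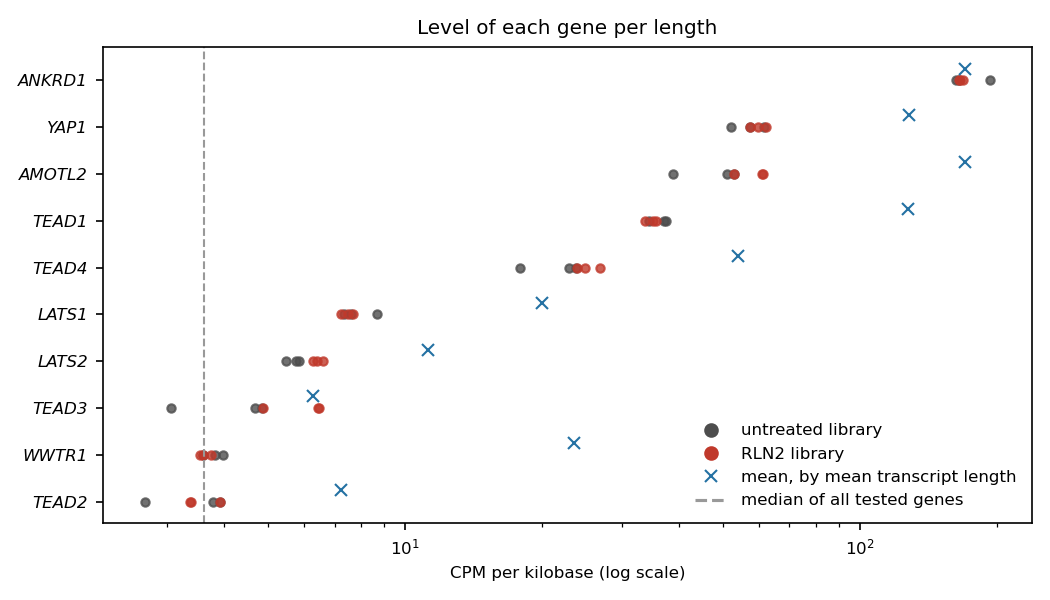
Each row is 1 gene and each point 1 library (grey untreated, red relaxin-2), placed on a log axis by CPM per kilobase of annotated exon; crosses give the mean by mean transcript length and the dashed line the median of all tested genes, 3.62. ANKRD1 stands highest at 170.3, YAP1 at 58.4, and TEAD2 and WWTR1 lie at the median gene.

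Among the TEAD transcripts TEAD1 held 52.9% ± 4.53 of the per-length sum (mean ± SD, 6 libraries), TEAD4 34.5% ± 2.77, TEAD3 7.44% ± 1.57 and TEAD2 5.18% ± 0.58. By mean transcript length the shares were 65.5%, 27.6%, 3.20% and 3.69%. TEAD1 and TEAD4 thus led on both scales, and TEAD3 and TEAD2 stood in the opposite order. Reads that fit several genes are left out of these counts. In the annotation 0 of the 31-base words of TEAD1 transcripts occurred in another gene, and the share of such words was 0.913% for TEAD3 and 1.08% for TEAD4, which share words with each other, and 0.0637% for TEAD2, shared with TEAD3. Over all members the highest share was 2.57%, in AMOTL2, which holds the ribosomal protein pseudogene RPL39P5 within its exons.

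The coactivator YAP1 (chromosome 11, 102110461 to 102233423) had 388, 328 and 362 CPM in untreated replicates 2, 3 and 4, and 391, 361 and 376 CPM in relaxin-2 replicates 1, 2 and 3, scaled by TMM (trimmed mean of M-values). The groups overlapped, and the lowest and the second highest library were both untreated. The log2 fold change, relaxin-2 over untreated, was 0.06 ± 0.08 (SE), with a 95% interval from 0.921-fold to 1.19-fold (edgeR adjusted p = 0.657). WWTR1 (chromosome 3, 149517235 to 149736714), the gene of the YAP paralogue TAZ, had 33.5, 32.1 and 30.2 CPM untreated and 31.5, 30.1 and 29.7 CPM with the hormone. All 6 values lay close together and the groups overlapped. Its log2 fold change was -0.07 ± 0.09, with an interval from 0.826-fold to 1.10-fold (edgeR adjusted p = 0.667). A change of either coactivator transcript by 1.5-fold lies outside these intervals, which hold for this fit and the spread among these libraries only. For WWTR1 the log2 fold change was -0.19 with offsets for GC content and length. With the replicate number as a block as well it was -0.32, below the interval's lower end of -0.28 (log2).

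TEAD1 (chromosome 11, 12674591 to 12944483), the most abundant TEAD factor here, had 381, 385 and 353 CPM untreated and 366, 346 and 362 CPM with the hormone. The highest values were untreated replicates 2 and 3, the lowest was relaxin-2 replicate 2, and the groups overlapped. The log2 fold change was -0.06 ± 0.07, with an interval from 0.865-fold to 1.07-fold (edgeR adjusted p = 0.622). TEAD2 (chromosome 19, 49340595 to 49362457) had few reads, at 7.97, 11.3 and 11.6 CPM untreated and 10.1, 11.7 and 10.0 CPM with the hormone. Untreated replicate 2 was the lowest library and the groups overlapped, with a log2 fold change of 0.04 ± 0.17 (edgeR adjusted p = 0.917).

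TEAD3 (chromosome 6, 35473597 to 35497076), a factor known from placenta, had 9.32, 14.2 and 14.8 CPM in untreated replicates 2, 3 and 4, and 14.9, 19.6 and 19.7 CPM in relaxin-2 replicates 1, 2 and 3. The groups did not overlap, but untreated replicate 4 and relaxin-2 replicate 1 differed by little. Its log2 fold change of 0.50 ± 0.20, from 12.8 ± 3.00 to 18.0 ± 2.76 CPM (mean ± SD, 3 libraries each), was the largest among the members and did not pass (edgeR adjusted p = 0.408). TEAD4 (chromosome 12, 2959330 to 3040673) had 40.7, 52.0 and 53.9 CPM untreated and 54.1, 56.6 and 60.9 CPM with the hormone. Here too the groups did not overlap, and the gap between untreated replicate 4 and relaxin-2 replicate 1 was small. The log2 fold change was 0.23 ± 0.12 (edgeR adjusted p = 0.408).

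The kinase LATS1 (chromosome 6, 149658153 to 149718256) had 74.9, 65.6 and 63.5 CPM untreated and 66.3, 64.7 and 62.3 CPM with the hormone. Untreated replicate 2 was the highest, the other 5 libraries lay within a narrow range, and the groups overlapped. The log2 fold change was -0.08 ± 0.09 (edgeR adjusted p = 0.615). LATS2 (chromosome 13, 20973032 to 21061547), a kinase that is also a YAP/TEAD target, had 30.5, 32.5 and 32.1 CPM untreated and 35.0, 36.9 and 35.6 CPM with the hormone. All relaxin-2 libraries stood above all untreated ones, with a log2 fold change of 0.18 ± 0.08 (edgeR adjusted p = 0.408).

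AMOTL2 (chromosome 3, 134355874 to 134375479) had 233, 306 and 316 CPM in untreated replicates 2, 3 and 4, and 316, 367 and 364 CPM in relaxin-2 replicates 1, 2 and 3. Untreated replicate 4 and relaxin-2 replicate 1 were level, so the groups just overlapped. The log2 fold change was 0.29 ± 0.12, from 285 ± 45.6 to 349 ± 28.6 CPM (mean ± SD, 3 libraries each), and did not pass (edgeR adjusted p = 0.408). ANKRD1 had 382, 322 and 327 CPM untreated and 329, 327 and 334 CPM with the hormone. Untreated replicate 2 alone stood high, and the other 5 libraries lay within 322 to 334 CPM. The log2 fold change was -0.06 ± 0.08, with an interval from 0.845-fold to 1.09-fold (edgeR adjusted p = 0.683).

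**Figure D2:**
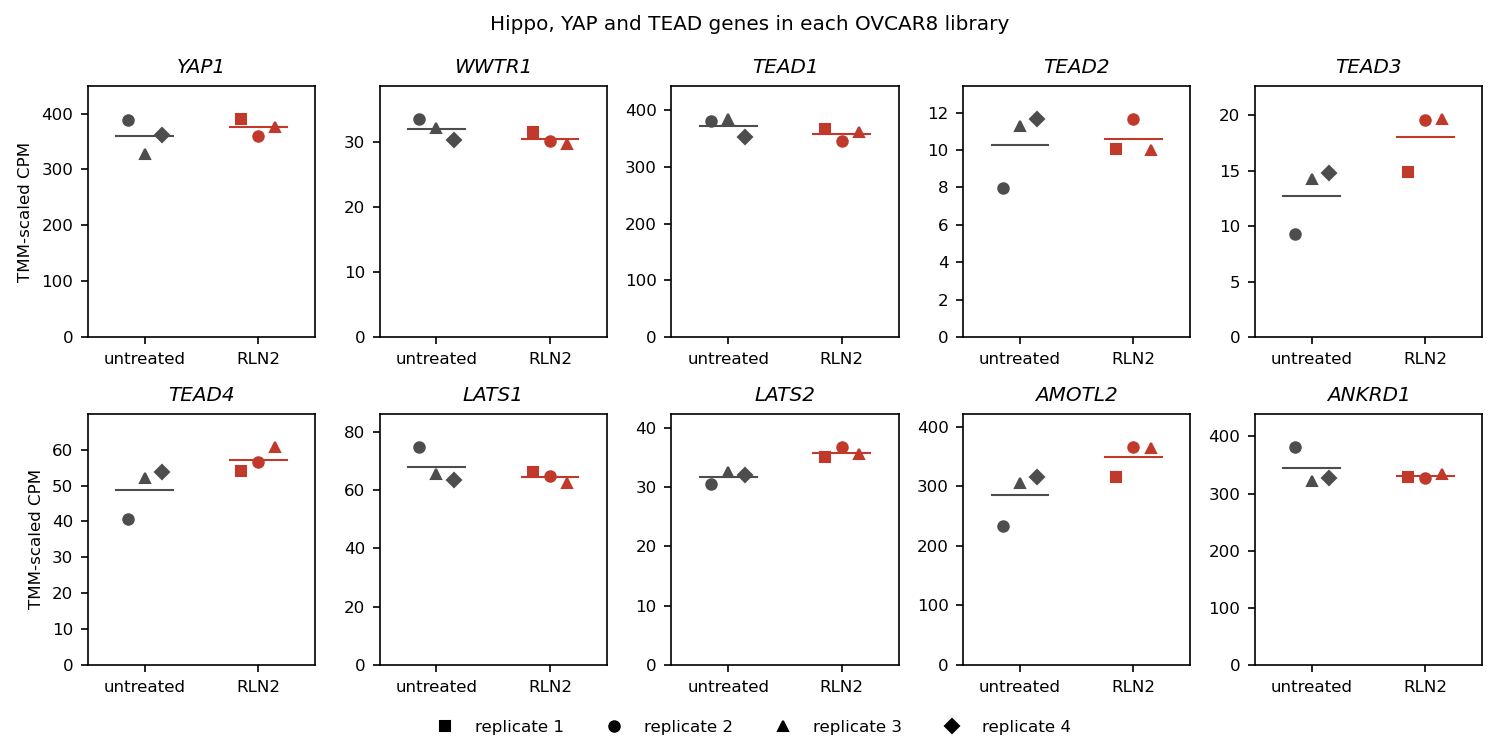
Each panel is 1 gene; the vertical axis is TMM-scaled CPM from 0, points are libraries by replicate number (grey untreated, red relaxin-2) and bars are group means. TEAD3, TEAD4 and LATS2 have groups that do not overlap, and untreated replicate 2 is the lowest library for 5 genes and the highest for 3.

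In all, 0 of the 10 members passed the edgeR test at an adjusted p under 0.05, as did 0% of all tested genes (0 of 16740, with 1811 at an unadjusted p under 0.05). DESeq2 and limma-voom also called 0 members. At an unadjusted p under 0.05 there were 2 members, TEAD3 and AMOTL2, both higher with the hormone, beside 10.8% of all tested genes (6.30% higher and 4.52% lower). Groups that do not overlap occurred in 3 members, TEAD3, TEAD4 and LATS2, all 3 higher, beside 21.4% of all tested genes (10.8% higher and 10.5% lower). Of the members 6 had fitted differences above 0, beside 47.8% of all tested genes, and 4 below, with a median of 0.05, against a median of -0.01 over all tested genes. With 10 members these counts are too small to set the genes apart from the background. That the values follow untreated replicate 2 and GC content is given next, and its part in them was not tested. Leaving out either relaxin-2 replicate 2 or replicate 3 brought the count of members at an unadjusted p under 0.05 to 0. The count over all tested genes also fell, to 492 of 17370 without replicate 2 and 612 of 16802 without replicate 3.

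The order of the members by difference went with the GC content of their transcripts. The 5 members above 55% GC (TEAD2 58.5%, LATS2 59.3%, TEAD3 60.6%, AMOTL2 63.1% and TEAD4 64.1%) were those lowest in untreated replicate 2 and all had differences above 0. LATS1 (44.6%), ANKRD1 (43.3%), TEAD1 (46.1%) and WWTR1 (53.7%) had differences below 0, and YAP1 (47.1%) was 0.06. Across the 10 members Pearson's r between GC content and log2 fold change was 0.76 and Spearman's rho 0.83, as a description, since all points share the same 6 libraries. The same trend ran through all tested genes, whose median log2 fold change was -0.12 from 42% to 46% GC, 0.29 from 55% to 60% and 0.53 above 60%. Set against the median of their own GC range, 7 members were lower and 3 (YAP1, LATS1 and ANKRD1) higher, and all 5 members above 55% GC were below it. TEAD1 and TEAD3 were lower by only 0.007 and 0.03, less than their SE. A median has as many tested genes below it as above, and 10 members are too few to set apart from that. TEAD4 at 0.23 and AMOTL2 at 0.29 lay well under the 0.53 of their range, and TEAD3 at 0.50 lay next to it.

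**Figure D3:**
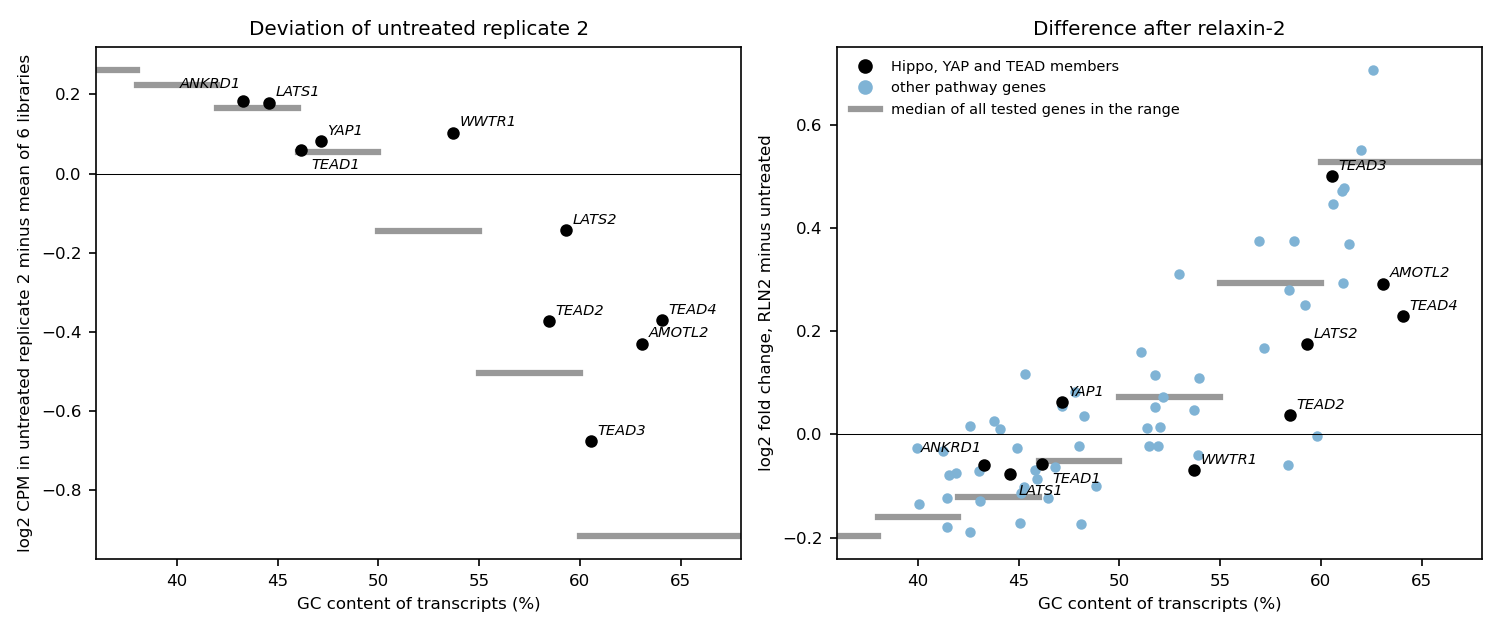
The horizontal axis is GC content of transcripts in percent; the left panel gives the log2 deviation of untreated replicate 2 from the mean of 6 libraries and the right panel the log2 fold change after relaxin-2, with members in black, other pathway genes in blue and grey bars for the median of all tested genes in each GC range. The bars run from 0.26 to -0.92 on the left and from -0.20 to 0.53 on the right, and members follow the same slope.

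When offsets for each library's trend on GC content and length were put into the same edgeR test, 7 of 10 members turned direction. AMOTL2 went from 0.29 to -0.31, TEAD4 from 0.23 to -0.39, LATS2 from 0.18 to -0.26 and TEAD2 from 0.04 to -0.31. TEAD3 kept its direction at 0.05, and ANKRD1, LATS1 and TEAD1 turned to 0.08, 0.02 and 0.01. YAP1 was 0.12 and WWTR1 -0.19 with the offsets. Leaving out untreated replicate 2 gave 0.31 for TEAD3, 0.16 for AMOTL2, 0.11 for TEAD4, -0.13 for TEAD2, 0.12 for YAP1 and 0.02 for ANKRD1. YAP1 was 0.00040 without untreated replicate 3. None of these settings brought a member past the threshold.

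**Figure D4:**
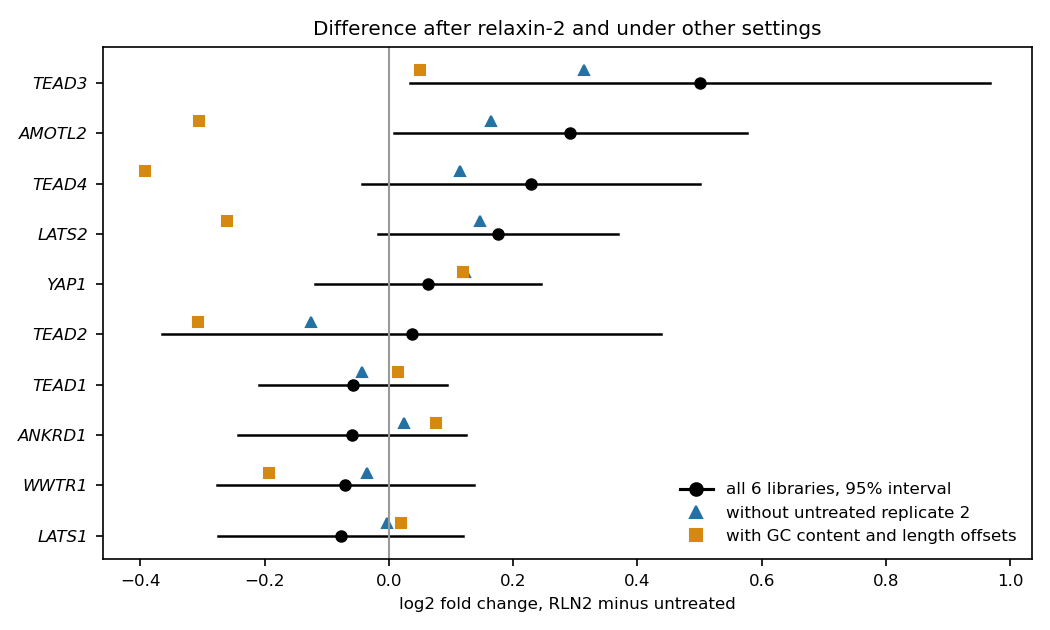
Black points with lines give the log2 fold change and 95% interval of each member from all 6 libraries, blue triangles the value without untreated replicate 2 and orange squares that with GC content and length offsets. TEAD3 moves from 0.50 to 0.05 with the offsets, still inside its interval, and AMOTL2 from 0.29 to -0.31. With the offsets AMOTL2, TEAD4 and LATS2 lie outside their intervals, while the other members, YAP1 and TEAD1 among them, stay within theirs.

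The rest of the pathway was read from 5 lists with 55 genes, of which 54 were tested and 0 passed the edgeR test. In these lists 28 fitted differences were above 0 and 26 below. The unadjusted p was under 0.05 for 6 of them (11.1%, beside 10.8% of all tested genes), and groups did not overlap in 9 (16.7%, beside 21.4%). Of 26 list genes above 50% GC, 21 had differences above 0, and of the 28 at or below 50% GC, 7 did. The lists were not compared with other genes by a set test.

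All 5 genes of the core kinase module, STK3 and STK4 (the MST kinases), their scaffold SAV1 and the LATS cofactors MOB1A and MOB1B, had differences below 0 (median -0.12), and none passed. MOB1A, the most abundant of them, had 284 ± 29.7 CPM untreated and 261 ± 11.4 CPM with the hormone (log2 fold change -0.12 ± 0.09), and MOB1B had -0.07 ± 0.09. SAV1 was -0.12 ± 0.08, or 0.05 once the offsets were in, where MOB1B was 0.06 and MOB1A -0.04. The list's median GC content was 41.5%. STK3, STK4 and SAV1 lay from 38% to 42% GC, where the median tested gene was -0.16. MOB1B (43.0%) lay in the range with a median of -0.12, and MOB1A (46.5%) in that with -0.05.

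Among 25 upstream regulators 15 were above 0 and 10 below, with a median of 0.02. WWC1 (KIBRA), a scaffold that activates LATS, had 88.5, 110 and 121 CPM untreated and 125, 136 and 135 CPM with the hormone, for a log2 fold change of 0.31 ± 0.11 (edgeR adjusted p = 0.408). Its groups did not overlap, and the value became 0.19 when untreated replicate 2 was left out and 0.23 with the offsets. STRN4, a subunit of the phosphatase complex that opposes the MST kinases, had 0.48 ± 0.19, which the offsets brought to 0.02. MAP4K4, a kinase upstream of LATS, had the highest CPM of the list, not scaled by length, with 463 ± 24.7 CPM untreated and 491 ± 16.6 CPM with the hormone (0.08 ± 0.07). FRMD6, a membrane scaffold, had 436 ± 21.0 and 416 ± 15.9 CPM (-0.07 ± 0.07), and per kilobase of exon it stood above MAP4K4, at 45.3 against 39.9. With the offsets FRMD6 was 0.02 and MAP4K4 0.12.

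NF2, which encodes merlin, the membrane tumour suppressor that recruits LATS kinases, had few reads. It was singled out after its values were seen. NF2 (chromosome 22, 29603556 to 29698598) had 12, 32 and 15 reads in untreated replicates 2, 3 and 4, and 11, 13 and 23 reads in relaxin-2 replicates 1, 2 and 3. That is 0.936 ± 0.44 CPM untreated and 0.930 ± 0.28 CPM with the hormone, low in every library of both groups. Per kilobase of exon its level of 0.130 ranked 16368th of 16673 genes, where the other upstream regulators ranged down to 0.729 (WTIP). The count without regard to strand was 113 reads, and 0% of its exon bases are covered by another annotated gene on either strand. Genome sequence and merlin protein were not analysed here.

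The other angiomotins were AMOTL1, with 185 ± 14.9 CPM untreated and 207 ± 12.8 CPM with the hormone (log2 fold change 0.16 ± 0.08), and AMOT, with 13.3 ± 1.40 and 14.4 ± 0.97 CPM (0.12 ± 0.13). Per kilobase of exon AMOTL2 therefore led this family, at 53.0 against 19.5 for AMOTL1 and 1.62 for AMOT. With the offsets AMOTL1 was 0.12 and AMOT 0.05. Of the vestigial-like TEAD cofactors VGLL1 was without a read (0 in total), for which the upper limit is 0.0264 CPM by a floor of 3 counts over 113628275 gene reads (counting error only). VGLL2 had 122 reads over the 6 libraries, with 1.08 ± 0.24 and 1.04 ± 0.16 CPM. VGLL3, which can take the place of YAP on TEAD, had 79.5 ± 5.76 and 74.3 ± 3.13 CPM (-0.10 ± 0.08), and VGLL4, a TEAD repressor, 27.8 ± 2.77 and 27.8 ± 0.47 CPM (0.00 ± 0.10). With the GC content and length offsets VGLL4 was -0.44 and VGLL3 -0.08.

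The list of 19 further YAP/TEAD targets had 11 genes above 0 and 8 below, a median log2 fold change of 0.03, and none that passed. Several were among the most abundant genes of the cells: F3 (tissue factor) had 239 CPM per kilobase of exon, CCN1, a matricellular protein, 178, AXL, a receptor tyrosine kinase, 94.5 and MYOF, a membrane repair protein, 92.3. F3 (chromosome 1, 94529225 to 94541800) had 738, 744 and 706 CPM untreated and 660, 632 and 649 CPM with the hormone. Its groups did not overlap, with lower values after relaxin-2 and a log2 fold change of -0.17 ± 0.06 (edgeR adjusted p = 0.408). Leaving out untreated replicate 2 gave -0.16 for F3, and the offsets gave -0.06.

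AXL (chromosome 19, 41219203 to 41261766) lay on the other side of 0, with 380, 459 and 495 CPM untreated and 499, 551 and 538 CPM with the hormone. The gap between the groups was small, and the log2 fold change was 0.25 ± 0.10; leaving out untreated replicate 2 gave 0.15, and the offsets gave -0.16. FJX1, a secreted kinase homologue, had 0.37 ± 0.14 and NUAK2, an AMPK-related kinase, 0.38 ± 0.19, and with the offsets these were 0.01 and 0.09. CCN1 had 412 ± 42.04 CPM untreated and 463 ± 44.2 CPM with the hormone (0.17 ± 0.10), and -0.15 with the offsets. MYOF had 767 ± 27.0 and 797 ± 14.1 CPM (0.06 ± 0.07), and 0.11 with the offsets. Fitted differences of targets of the same factors lay on both sides of 0, and none passed. For the highest-level targets, the log2 intervals of ANKRD1 (-0.24 to 0.12) and CCN1 (-0.06 to 0.40) included 0. With the offsets ANKRD1 was 0.08, F3 -0.06 and CCN1 -0.15. Whether the targets share a direction was not tested.

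Genes whose log2 CPM followed a member most closely over the 6 libraries were named by Pearson's r among the 13074 tested genes averaging 1 or more on the log2 CPM scale. For YAP1 they were PLSCR4 (r = 0.99), ATP5PF (0.98) and EXO5 (0.98), and for ANKRD1 they were CASC2, TMEM167B and MMGT1, all at 0.99 or above. Among the 13074 genes, 84 exceeded 0.95 for ANKRD1 and 21 for YAP1, so with 6 libraries an r above 0.95 was not particular to the named genes. Between members, ANKRD1 correlated with LATS1 at 0.89 and with TEAD2 at -0.93, and in untreated replicate 2 ANKRD1 had its highest and TEAD2 its lowest value. YAP1 and ANKRD1 correlated at 0.56.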

How the data were processed

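RNA from OVCAR8 cells was isolated with TRIzol and sequenced as stranded total RNA libraries (per the labels' protocols). The authors deposited raw gene counts, in a file for each library that has unstranded, forward and reverse columns, and a merged count table. The submitters' processing notes name STAR and hg38, without a STAR version or annotation release. The reverse column was used. It held 17.8 to 19.8 gene reads for each forward one and equalled the merged table in all 24635 shared gene IDs. Reads outside genes stayed out of library sizes: 6.73% to 17.4% were unmapped, 5.31% to 27.0% multimapping, 17.5% to 32.0% without a feature and 2.36% to 4.18% ambiguous.

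Counts were filtered with filterByExpr, scaled by TMM and tested in R 4.3.3 by the two-sided quasi-likelihood F test of edgeR 4.0.16, with Benjamini-Hochberg adjustment and a threshold of 0.05. All 6 libraries entered 1 fit on treatment alone, and log2 fold changes had a median SE of 0.16. Alternatives were DESeq2 1.42.0, limma-voom (limma 3.58.1), other scalings and filters, unstranded counts, the merged table, an adjusted p under 0.10, offsets for each library's spline trend on GC content and log length (GENCODE 29 transcripts, known for 99.6% of tested genes), the replicate number as a block, that block with the offsets, and leaving out libraries. The test was checked on simulated counts. These held no library trend on GC content, so the check does not cover that trend. Named list genes were, per list, the 2 with the smallest p and the 2 most abundant (4 each for targets), from lists of the core kinase module, upstream regulators, angiomotins, TEAD cofactors and YAP/TEAD targets. Members and lists were chosen with earlier results of these data known. Tables used Python 3.11.15 and pandas 2.3.3, figures matplotlib 3.10.9.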

Additional observations from a re-analysis of the deposited data

How the results depend on the processing

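Members past the threshold were 0 under every alternative but the replicate block with GC content and length offsets, which called 2, AMOTL2 (-0.45) and TEAD4 (-0.60), both in the direction opposite to that with all libraries and no offsets. The cause was not tested. That setting called 247 genes in all and 3 of the other pathway genes (VGLL4 and GADD45A lower, CCDC80 higher). In it 5 members had an unadjusted p under 0.05, beside 2022 of 16740 tested genes. The same setting gave -0.37 for TEAD2, -0.43 for LATS2, 0.01 for LATS1 (0.0089) and 0.11 for ANKRD1. WWTR1 kept its direction in it, at -0.32. Numbers 2 and 3 occur in both groups, and the labels do not say that a number marks a shared culture or day. Numbers 1 and 4 each occur in 1 group only. With the block, relaxin-2 replicate 1 and untreated replicate 4 therefore add nothing to the fitted difference. It rests on the libraries numbered 2 and 3, among them untreated replicate 2. Deviations from the group means correlated at -0.33 for the libraries numbered 2 and at 0.13 for those numbered 3. These values cannot decide on pairing, because deviations within a group sum to 0 and vary with GC content. The numbers were not read as pairs in the main fit. The replicate block alone called 1 gene and 0 members, with all members in the same direction.

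Genes called were 120 without a filter, 3 without both libraries numbered 2, and 0 to 3 when 1 library was left out (3 without untreated replicate 2). Members at an unadjusted p under 0.05 were 1 with library sizes alone, 1 without both libraries numbered 2, and 0 to 3 with 1 library left out. Over all tested genes these counts were 1827 of 16740 and 1273 of 16889. With 1 library left out they ran from 492 of 17370 to 3602 of 17315. With GC content and length offsets the turned values were 0.01 for TEAD1 (0.015), -0.31 for TEAD2, -0.39 for TEAD4, 0.020 for LATS1, -0.26 for LATS2, -0.31 for AMOTL2 and 0.075 for ANKRD1. Without both libraries numbered 2 they were -0.18 for TEAD2, 0.0019 for LATS1 and 0.038 for ANKRD1. Leaving out 1 library gave -0.13 to 0.13 for TEAD2 (-0.03 without relaxin-2 replicate 2) and -0.11 to 0.024 for ANKRD1. Adjusted p over the alternatives ran from 0.0435 to 0.766 for AMOTL2, 0.0377 to 0.827 for TEAD4 and 0.159 to 0.942 for TEAD3. TEAD2 and TEAD3, with 134 to 433 reads per library, have the widest intervals.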
